A study of Mus musculus with 6 samples.

Results

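Casein kinase 2 is encoded in the mouse by 3 genes, Csnk2a1, Csnk2a2 and Csnk2b, and 7 array probes carry their names: 3 for Csnk2a2, 3 for Csnk2a1 and 1 for Csnk2b. They are 3 of the 27376 gene names on the array, and every gene probe with one of these names was taken, each kept apart. The genes were chosen by their earlier values in these data, since the Csnk2a2 probes had been seen to differ from each other between genotypes. The Csnk2a2 differences below are therefore a description and carry no test. All 7 probes were well above background on all 6 arrays, none was saturated, and all 7 passed the filter on dim probes.

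The study measured testis RNA of male mice with a disrupted Prss54 gene (Prss54KO, n = 3) and of wild-type males (WT, n = 3). All animals were 6 to 8 weeks old and had a mixed 129Sv/C57BL/6 background, and each was hybridised to its own 1-colour array. The labels name neither the part of Prss54 that was removed nor any litter. Prss54 encodes a member of the serine protease family.

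Casein kinase 2 is a serine/threonine kinase built from catalytic subunits, encoded by Csnk2a1 and Csnk2a2, and a regulatory subunit, encoded by Csnk2b. The catalytic subunits share many substrates, but in the mouse Csnk2a2 is required in the testis: males without it are infertile and make round-headed sperm with defects of the acrosome, the vesicle on the sperm head that serves fertilisation. Csnk2a2 lies close to Prss54 on chromosome 8.

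The 3 Csnk2a2 probes were designed on different cDNAs, and they sit at different places along the gene, which is transcribed from the minus strand. Probe A_52_P405362 (AK019507, a neonate skin cDNA clone) lies at chr8:97975385-97975444 in the mm9 build. Probe A_52_P207614 (AK004115, an embryo cDNA clone) lies at chr8:97973573-97973632. Probe A_51_P202964 (the RefSeq transcript NM_009974) lies at chr8:97972108-97972167. In the direction of transcription A_52_P405362 comes first, 3277 bases upstream of A_51_P202964, and A_52_P207614 is 1465 bases upstream of it. The first 30 of the 60 bases of each are shown because the genotype difference depended on which of them was read:
A_52_P405362: ctttaagatctttataaagcaggacataca
A_52_P207614: ccaatgtgctacaaatgtgacacttgaccc
A_51_P202964: caccgtaaatcagacctcacttccgaatgt
Their GC content was 35.0%, 40.0% and 45.0%, where the median over all 41174 probes was 40.0%. Over their whole length the 3 probes shared at most 14 to 15 bases in a row with a probe of any other gene. The exon or untranslated region under each probe is not given here, because no mm9 annotation was used.

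The other subunits were read on other chromosomes. Csnk2a1 lies on chromosome 2 and is transcribed from the plus strand. Its probe A_51_P397768 covers 60 bases spread over chr2:152098418-152099840, so it crosses a splice junction and reads spliced RNA. That probe is shown whole:
A_51_P397768: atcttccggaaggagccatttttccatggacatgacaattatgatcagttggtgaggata
A_52_P513959 lies at chr2:152105978-152106037 and A_52_P131997 at chr2:152106713-152106772, which is 735 bases further along the gene. RefSeq lists pseudogenes of the catalytic subunit (Csnk2a3, Csnk2a1-ps and Csnk2a1-ps1), so RNA from such copies cannot be told apart from that of Csnk2a1 where the sequences match. The Csnk2b probe A_51_P373379 lies at chr17:35253177-35253236 on the minus strand. Its last 30 bases hold the hexamer ATTAAA (capitals), a variant of the polyadenylation signal that 2.9% of all probes hold on the printed strand. The standard form AATAAA, held by 4.8% of all probes, is in none of the 7 member probes:
A_51_P373379: ttttagtttaaATTAAAggaattgttactg

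The most upstream Csnk2a2 probe, A_52_P405362, was brighter in every Prss54KO testis than in any WT testis. Its processed signal, a linear brightness from which Feature Extraction had taken the background, was 400.79, 390.76 and 416.66 in Prss54KO replicates 1, 2 and 3. In WT replicates 1, 2 and 3 it was 247.88, 240.86 and 228.99. The genotypes did not overlap, and within each of them the animals lay close together. The mean signal was 402.74 ± 13.06 in Prss54KO and 239.24 ± 9.54 in WT (SD, n = 3 each). On the level scale, log2 of the signal relative to the array's 75th percentile, the Prss54KO minus WT difference was 0.72 (SE 0.07), or 1.65-fold. The same was seen in the spots before background treatment, at 506.33, 486.05 and 488.4 in Prss54KO against 336.34, 339.88 and 302.07 in WT. A difference of this size in either direction was found for 181 of the 28912 tested probes, or 0.626%.

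The middle Csnk2a2 probe, A_52_P207614, was also higher in every Prss54KO testis. Its signal was 3544.9, 3336.4 and 3394.6 in Prss54KO, against 2684.7, 2406.3 and 2474 in WT. The genotypes again did not overlap. Means were 3425.3 ± 107.6 in Prss54KO and 2521.6 ± 145.2 in WT (SD, n = 3 each), and the level difference was 0.41 (SE 0.07), or 1.33-fold. Differences at least as large occurred in 2.27% of tested probes.

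The most downstream Csnk2a2 probe, A_51_P202964, which is the one designed on the RefSeq transcript, gave nearly the same level in both genotypes. Its signal was 18977, 18766 and 18850 in Prss54KO, against 18849, 16885 and 19213 in WT, and the genotypes overlapped. The level difference was 0.02 (SE 0.06), a ratio of 1.01 with a 95% interval of 0.92 to 1.11. The Csnk2a2 differences thus ran from 0.72 to 0.41 to 0.02 along the direction of transcription. Brightness followed the same order, with WT mean signals of 239.24, 2521.6 and 18315, and so did GC content. With 3 probes, position, brightness and GC content cannot be told apart. In whole testis RNA, a change in the number of cells of a type and one in RNA per cell cannot be told apart. The background was mixed, and the labels do not give the strain of origin of the Prss54 and Csnk2a2 region in each animal. Its part in these differences was not tested.

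**Figure D1:**
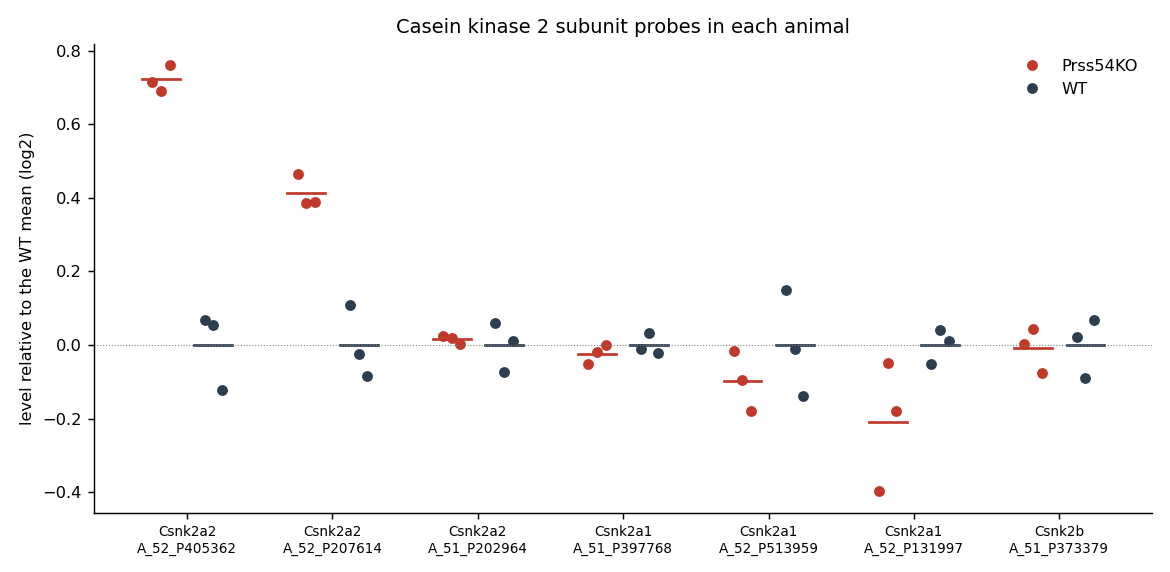
Level of each of the 7 casein kinase 2 probes in every animal, relative to the WT mean of that probe (vertical axis, log2), with Prss54KO left and WT right of each tick. Points are animals and bars are means (n = 3 each). A_52_P405362 and A_52_P207614 of Csnk2a2 separate the genotypes, and the other 5 probes overlap.

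A ratio between probes of a gene on the same array is not changed by dividing the array by its 75th percentile or median. For A_52_P405362 over A_51_P202964 of Csnk2a2, relative to the WT mean of the ratio, the log2 values were 0.69, 0.67 and 0.76 in Prss54KO replicates 1 to 3 and 0.01, 0.13 and -0.13 in WT replicates 1 to 3. For A_52_P207614 over A_51_P202964 they were 0.44, 0.37 and 0.39 in Prss54KO and 0.05, 0.05 and -0.10 in WT. For A_52_P405362 over A_52_P207614, the pair of probes that were both higher, they were 0.25, 0.30 and 0.37 in Prss54KO and -0.04, 0.08 and -0.04 in WT. None of the 3 Csnk2a2 ratios overlapped between genotypes, which restates the disagreement by which the gene was chosen. As folds, the Prss54KO over WT change of the 3 ratios was 1.63, 1.32 and 1.24. Among all 12385 pairs of tested probes with the same gene name, counting only names that are RefSeq symbols, ratios failed to overlap in 8.16%. All 3 Csnk2a1 pairs overlapped.

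**Figure D2:**
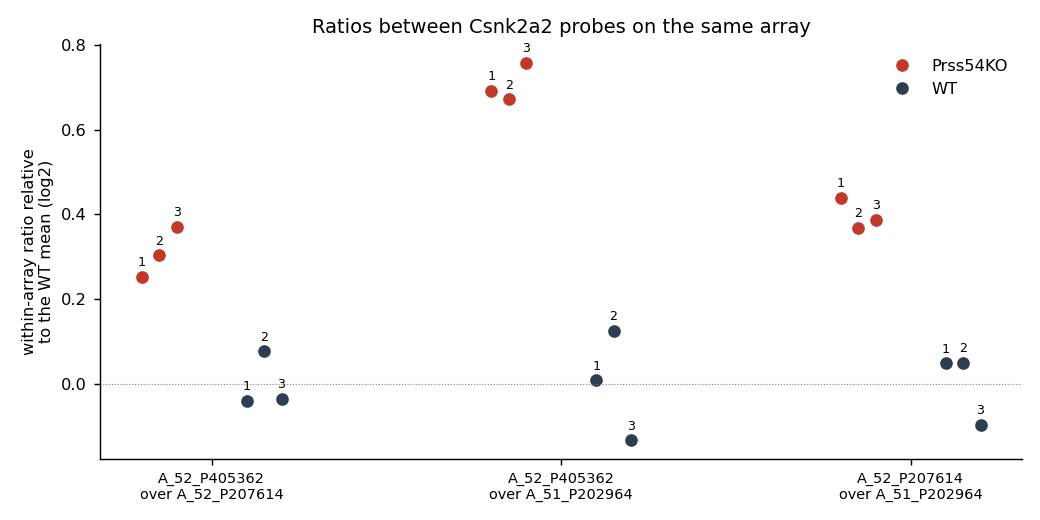
Within-array log2 ratios between Csnk2a2 probes relative to the WT mean of each ratio (vertical axis), with Prss54KO left of WT and each animal marked by its replicate number. The Prss54KO values for A_52_P405362 over A_51_P202964 sit at 0.67 to 0.76, above all WT values.

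**Figure D3:**
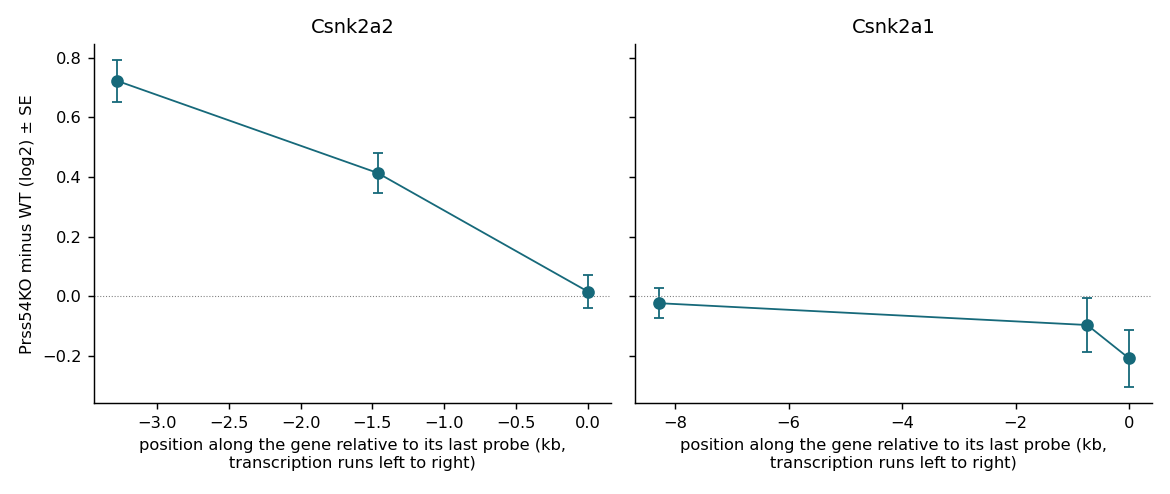
Prss54KO minus WT level difference (log2, bars are SE) of each Csnk2a2 probe (left) and Csnk2a1 probe (right) against its position relative to the last probe of the gene in kb, with transcription running left to right. The Csnk2a2 differences are 0.72, 0.41 and 0.02 in that order, and those of Csnk2a1 are -0.02, -0.10 and -0.21. The Csnk2a2 probes also grow brighter in that order.

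The arrays stood on 3 slides, and slide 2 alone held both genotypes (Prss54KO replicates 1 and 2 with WT replicate 3). On that slide the Csnk2a2 differences were 0.82 for A_52_P405362, 0.51 for A_52_P207614 and 0.01 for A_51_P202964, and the slide as a fixed block gave the same values. They rest on 1 WT animal, the one with the lowest level of both upstream probes. When each animal was left out in turn, A_52_P405362 stayed between 0.66 and 0.76 and A_52_P207614 between 0.37 and 0.47.

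Csnk2a1, the other catalytic subunit, did not pass the test at any of its probes. The junction-crossing probe A_51_P397768 had signals of 527.13, 535.38 and 550.72 in Prss54KO, against 525.63, 531.26 and 549.99 in WT. The genotypes overlapped closely, with a level difference of -0.02 (SE 0.05, 95% interval -0.14 to 0.10). Its animals varied little: only 1.95% of tested probes had a smaller within-genotype SD than its 0.03 on the log2 scale. The interval of this probe does not reach the size of the difference seen at A_52_P207614 or A_52_P405362 of Csnk2a2. That of A_52_P131997, given below, reaches the size at A_52_P207614 in the opposite direction.

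A_52_P513959 of Csnk2a1 had signals of 1487.7, 1399.2 and 1340.1 in Prss54KO, against 1617.3, 1420.6 and 1397.5 in WT. The genotypes overlapped, and the difference was -0.10 (SE 0.09, 95% interval -0.31 to 0.12). On slide 2 alone it was 0.08. The most downstream probe of the gene, A_52_P131997, had signals of 239.3, 302.28 and 280.82 in Prss54KO, against 294.73, 308.51 and 324.24 in WT. Prss54KO replicate 1 was the lowest of the 6 animals, and Prss54KO replicate 2 lay inside the WT range. On the level scale it did so only just, at -2.4602 against a lowest WT level of -2.462. The difference was -0.21 (SE 0.10, 95% interval -0.44 to 0.03). The limma p-values of the 3 Csnk2a1 probes were 0.647, 0.319 and 0.0725 in the order of transcription, and all 3 were 0.9999 after Benjamini-Hochberg adjustment over all tested probes. Leaving out Prss54KO replicate 1 moved A_52_P131997 to -0.11.

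Csnk2b, the regulatory subunit, was read by a single probe and did not pass either. Its signal was 162820, 166290 and 155370 in Prss54KO, against 159640, 145240 and 173920 in WT. The WT animals spanned the whole Prss54KO range. The difference was -0.01 (SE 0.07, 95% interval -0.17 to 0.15), with a limma p of 0.894 and an adjusted p of 0.9999. Its sign changed in 5 of 18 alternatives, so it has no settled direction.

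Counted over the 7 probes, 0 passed limma's adjusted p of 0.05, as did 0% of all 28912 tested probes. At an unadjusted p under 0.05, 2 were higher and 0 lower in Prss54KO, where 1.73% of all tested probes were higher and 1.48% lower. In 2 of the 7 every Prss54KO array lay above every WT array, and in 0 below, where the share over all tested probes was 4.21% above and 3.6% below. The 2 are the upstream Csnk2a2 probes by which the genes were chosen, so these counts describe the choice. Of the 4 probes of Csnk2a1 and Csnk2b, which the choice did not rest on, none separated the genotypes or passed at the unadjusted threshold.

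Probes of a gene usually gave similar differences on these arrays. The range of the Prss54KO minus WT difference between probes was taken over the 6145 genes with at least 2 tested probes. Only array names that are current RefSeq symbols were counted. This range had a median of 0.08 and a 95th percentile of 0.37 on the log2 scale. Csnk2a2, at 0.71, ranked 65, and among the 1423 genes with 3 tested probes it ranked 15. Csnk2a1, at 0.18, ranked 1219. The Csnk2a2 rank depended on the filter: it was 13 with probes well above background on all 6 arrays and 571 with no filter. It was also 142 without WT replicate 3, 114 without Prss54KO replicate 3 and 121 with the slide as a fixed block.

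The genes with the widest ranges were Col12a1 (2.17), Pes1 (2.05), Pot1a (1.75), Usp34 (1.63) and Itga4 (1.34). They encode a fibril-associated collagen chain, a ribosome biogenesis factor, a telomere-end protein, a ubiquitin protease and an integrin chain. The SE of the probe with the larger difference was 0.79 in Col12a1, 2.49 in Pes1, 0.52 in Pot1a, 1.28 in Usp34 and 0.61 in Itga4. These ranks are a description, since Csnk2a2 was chosen for the disagreement between its probes.

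**Figure D4:**
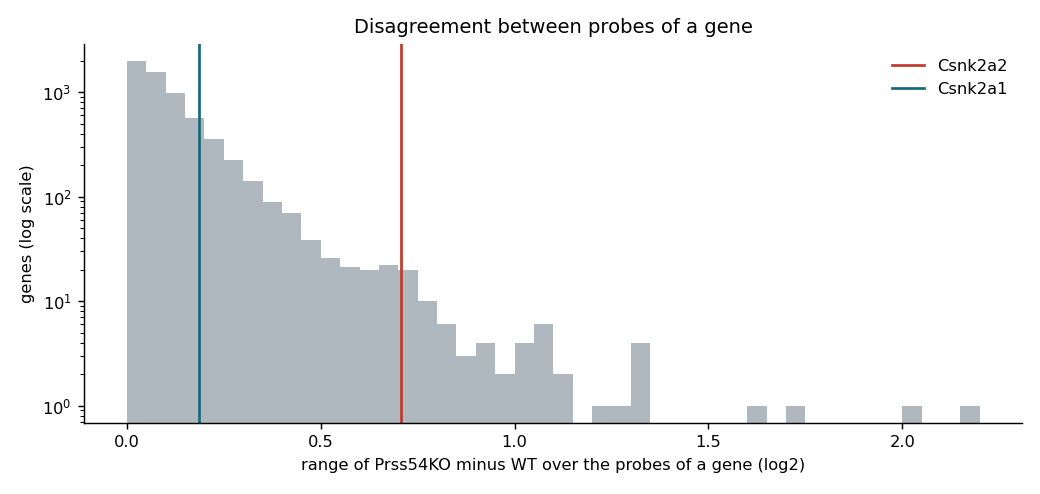
Histogram of the range of Prss54KO minus WT differences over the probes of a gene (horizontal axis, log2) for the 6145 genes with a RefSeq symbol and at least 2 tested probes (vertical axis, genes, log scale). Vertical lines mark Csnk2a2 at 0.71 and Csnk2a1 at 0.18.

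Prss54 has 1 probe on the array, A_51_P209704, 107549 bases from the nearest Csnk2a2 probe. Its signal was 7381.2, 9466.1 and 8415.6 in Prss54KO, against 22677, 24152 and 26120 in WT. The genotypes did not overlap, with a difference of -1.56 (SE 0.10), the smallest p of all tested probes and an adjusted p from limma of 0.108. It passed the threshold in 3 of 18 alternatives: normexp background correction (0.00516), an intensity trend with robust variance (0.00955) and the filter on all 6 arrays (0.0486). In the other 15 it did not, with adjusted p-values that included 0.382 with the slide as a fixed block, 0.707 on slide 2 alone, 0.911 with a replicate block and 1 without WT replicate 1.

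Prss54 and Mmp15 apart, the genes whose probes lie on either side of the Csnk2a2 probes showed differences near 0. Towards Prss54, the uncharacterised 4933406B17Rik, 49137 bases away, differed by 0.10 (SE 0.07), and the ciliary gene Ccdc113, 94502 bases away, by 0.02 (SE 0.06). On the far side, Gtl3 (Cfap20 in RefSeq, a ciliary gene), 27065 bases away, differed by 0.03 (SE 0.05), and Usb1, an RNA exonuclease gene at 101332 bases, by -0.04 (SE 0.08). In each of these 4 genes the genotypes overlapped. Mmp15, a membrane-type matrix metalloproteinase gene 74346 bases away, was not well above background on any array and was not tested. Its mean signals were only 14.2 in Prss54KO and 7.76 in WT. Its level difference was 0.75, with every Prss54KO array above every WT array. The differences of A_52_P405362 and A_52_P207614 were larger than those of 4933406B17Rik and Ccdc113, the measured genes between Csnk2a2 and Prss54. Csnk2a2 was chosen on this contrast, so that comparison describes the choice. No p is given for the neighbours other than Prss54. Genes further away were not examined as neighbours. Among them is Cngb1 on the same chromosome, at a distance not given here. A probe of Cngb1 was higher by 0.92 in Prss54KO.

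**Figure D5:**
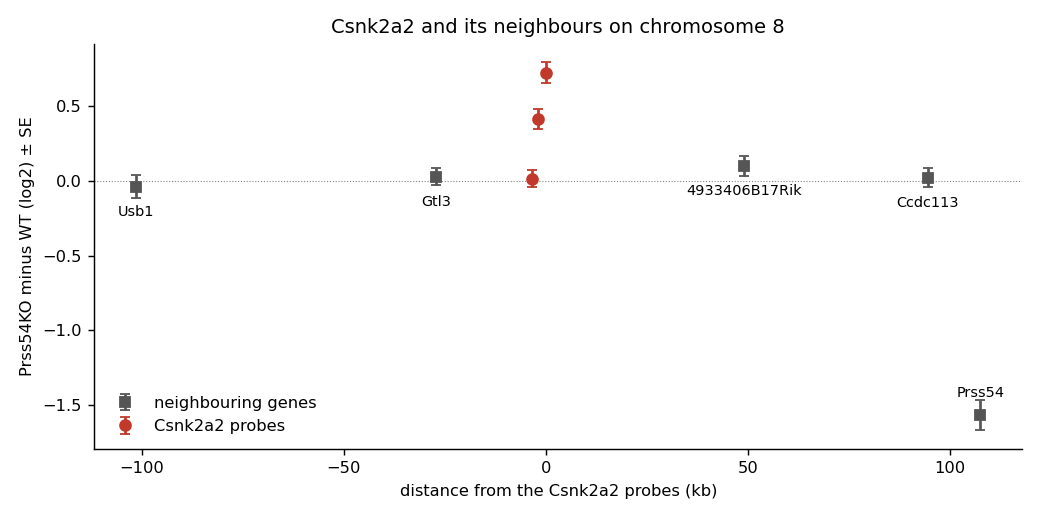
Prss54KO minus WT level difference (vertical axis, log2, bars are SE) of the Csnk2a2 probes and of the measured neighbouring genes on chromosome 8 against distance from the Csnk2a2 probes in kb. The 4 neighbours other than Prss54 lie between -0.04 and 0.10, and Prss54 at -1.56. Mmp15, not well above background on any array, is not shown.

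Over the 6 arrays, the levels of A_52_P405362 and A_52_P207614 of Csnk2a2 moved together (Pearson r = 0.98, n = 6). With A_51_P202964 the correlation was 0.17 for A_52_P405362 and 0.34 for A_52_P207614. These values share the genotype contrast and the array scaling, and they are given as a description.

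The search covered 23763 tested probes with other gene names that are RefSeq symbols. Those most like A_52_P405362 were of Padi3 (r = 0.99), an enzyme of protein citrullination, Csmd3 (0.99) and Cngb1 (0.99), a subunit of a cyclic nucleotide-gated channel. The Cngb1 probe is also on chromosome 8 and differed by 0.92 between genotypes, while those of Padi3 and Csmd3 differed by 0.15. Most like A_52_P207614 were Ppp1r9a (0.99), which encodes an actin-binding phosphatase regulator, Phxr4 (0.99) and Padi3 (0.98). A_51_P202964 was most like Ndufs6 (0.996), a subunit of respiratory complex I, Usp5 (0.99), a deubiquitinase gene, and Rpl34 (0.98), a ribosomal protein gene, whose differences were all between 0.02 and 0.03. Probes with r of at least 0.9 numbered 92, 70 and 115 for the Csnk2a2 probes in the order of transcription. Many probes thus reach such an r over 6 arrays. A_52_P405362 and A_52_P207614 split the genotypes by choice, so other probes that split them correlate with both. Prss54 had r = -0.98 with A_52_P405362 and -0.97 with A_52_P207614. These likenesses are a description.

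Proteins that casein kinase 2 binds or phosphorylates were examined as a list of 42 genes, of which 41 were on the array and 38 had tested probes. None of their 68 tested probes passed limma's adjusted threshold or an unadjusted p under 0.05 in either direction. Over all 28912 tested probes, 0% passed the adjusted threshold, and at the unadjusted one 1.73% were higher and 1.48% lower. Their median difference was 0.01, the same as over all genes (0.01), and 24 of the 38 lay above 0 (share over all genes not given here). The median changed sign under median scaling (-0.01) and without WT replicate 3 (-0.02). Median scaling moved the differences in general, by a median of -0.0193. Supt16 (Supt16h in RefSeq, a subunit of the FACT histone chaperone) had the smallest p. Its levels were -4.07, -4.10 and -3.82 in Prss54KO, against -3.63, -3.87 and -3.82 in WT, and its difference of -0.22 (SE 0.10) had an adjusted p of 0.9999. The cell cycle kinase gene Cdk1 differed by 0.12 (SE 0.07), and by 0.0013 on slide 2 alone. Csnka2ip, named for binding the Csnk2a2 product, had levels of 1.53, 1.62 and 1.43 in Prss54KO, against 1.44, 1.67 and 1.63 in WT, a difference of -0.06 (SE 0.09) with overlapping genotypes.

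Genes linked to round-headed or acrosome-deficient sperm made up a list of 20, all on the array and tested with 39 probes. Loss of Csnk2a2 gives such sperm in mice. None passed limma's adjusted threshold or an unadjusted p under 0.05 (over all tested probes, 1.73% higher and 1.48% lower at the latter). The median difference was 0.01, as over all genes (0.01), and 14 of the 20 lay above 0. Over the alternatives this median ran from -0.0068 to 0.0411. Spata16, a spermatid Golgi gene, had levels of 4.13, 4.04 and 4.11 in Prss54KO, against 3.89 to 4.02 in WT. Its genotypes did not overlap at this probe, but by a margin of only 0.02, and the difference was 0.12 (SE 0.06), or 0.06 on slide 2 alone. At its other tested probe the difference was 0.04 (SE 0.05). Over all tested probes, 4.21% had every Prss54KO array above every WT array and 3.6% below. The Golga3 probe with the smallest p lay below, by a margin of 0.01. Golga3, a golgin gene, differed by -0.12 (SE 0.06) at the probe with the smallest p (-0.08 on slide 2 alone) and by 0.15 (SE 0.12), 0.11 (SE 0.06) and 0.41 (SE 0.24) at its 3 other tested probes, so its probes disagreed in sign. Pick1, a scaffold gene required for acrosome formation and counted in both lists, differed by -0.07 (SE 0.08) and -0.17 (SE 0.21) at its 2 probes.

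The casein kinase 1 family, which shares the name but belongs to a separate kinase family, served as a further list of 8 genes with 23 tested probes. None passed limma's adjusted threshold or an unadjusted p under 0.05 (over all tested probes, 1.73% higher and 1.48% lower at the latter). The median difference was 0.02, against 0.01 over all genes, and 4 of the 8 lay above 0. Over the alternatives this median ran from -0.0179 to 0.063. The genes with the smallest p were Ttbk1, a tau-tubulin kinase gene (0.14, SE 0.07, and 0.09 on slide 2 alone), and Csnk1d (0.09, SE 0.05). At this Csnk1d probe every Prss54KO array lay above every WT array, by a margin of 0.02 (4.21% of all tested probes lay above). The adjusted p-values of the probes of the 3 lists were 0.9999 or 1.

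The tissue label was checked against germ cell markers: all 8 (meiotic and spermatid genes such as Sycp3, Acrv1 and Prm1) were well above background on all 6 arrays. Their summed level, log2 of the summed signals relative to the same percentile, lay between 10.003 and 10.09 in Prss54KO and between 10.01 and 10.08 in WT, with a median difference of 0.00. All 5 fibroblast and matrix markers lay lower in Prss54KO (median -0.67), 2 of them at an unadjusted limma p under 0.05. Over all tested probes, 1.48% were lower and 1.73% higher at that threshold. The summed level of these 5 markers was 4.32 to 4.86 in Prss54KO and 4.81 to 5.18 in WT. The 1 tested epididymis marker of 3 was higher by 0.20 at an unadjusted p under 0.05, with levels of -2.00 to -1.89 in Prss54KO and -2.19 to -2.09 in WT. Median differences were -0.15 for 2 endothelial markers (1 at an unadjusted p under 0.05), -0.51 for 2 red blood cell markers, -0.35 for 3 adipocyte markers, -0.06 for 4 macrophage markers and -0.04 for 4 peritubular and smooth muscle markers. The summed level of the red blood cell markers overlapped between genotypes (2.89 to 3.24 in Prss54KO, 2.665 to 4.29 in WT). That of the adipocyte markers, 1 of which was higher in Prss54KO, did too (1.32 to 1.61 in Prss54KO, 0.93 to 1.53 in WT). The part of these marker differences in the Csnk2a2 values was not tested. Of 6 Leydig cell markers 5 were on the array, with a median difference of -0.07, and the 6 Sertoli cell markers had one of 0.02.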

How the data were processed

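Testis RNA (0.5 ug per animal, Cy3) of 3 Prss54KO and 3 WT mice was read on 1-colour arrays with 60-base probes. Per the file headers, the deposited files come from Agilent Feature Extraction (10.7.3.1) and hold linear spot intensity, with mm9 probe positions. The authors also deposited a table of log2 values of the same arrays (median 7.73 per column, r of at least 0.999 with the scanner values), used as an alternative only. No source used here states its normalization.

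As the level, log2 processed signal was taken relative to each array's 75th percentile. Spots of a probe were averaged, spots marked as outliers (86 to 142 per array) were left out, and 28912 of 41174 probes were tested, each well above background on 3 or more of the 6 arrays. Array medians were 203.1 to 219.7 intensity units, and 66.2% to 74.8% of gene spots were well above background. The number of arrays limits the precision. Feature Extraction's own error was about 10% of the signal at each member spot.

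Genotypes were compared by limma (3.58.1, under R 4.3.3) with a two-sided moderated test from eBayes, Benjamini-Hochberg adjustment over all tested probes and a threshold of 0.05, and differences are Prss54KO minus WT. Nothing says that the animals of a genotype are independent of litter, so p-values measure the spread between these samples. A single exact permutation test of 3 against 3 cannot go below 0.1. The fit was tested on simulated data.

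The members and lists were chosen with earlier results of these data known. Named are all member probes, Prss54, the 3 genes on either side of Csnk2a2 by probe position, the 2 genes of each list with the smallest p where none passed the adjusted threshold, the 5 genes with the widest range between probes, and the 3 genes most correlated with each Csnk2a2 probe. Csnka2ip and Pick1 were added for their role, and the other Golga3 probes after their values were seen. A list gene was represented by its brightest probe for medians. Gene names are as the array was designed. Of the lists' genes, Mdc1 did not match, and 2 matched through RefSeq synonyms. RefSeq (GRCm38.p6) served for names only, and probe sequences come from the scanner files.

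Same-numbered Prss54KO and WT animals did not deviate together (correlations of -0.04, 0.02 and -0.15), so replicate numbers were not used as pairs. Alternatives were quantile or median scaling, normexp correction with an offset of 50, the deposited table, slide as a fixed or random block or slide 2 alone, a replicate block, array weights, an intensity trend with robust variance, other filters, the mean of a gene's probes and leaving out each animal.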

Additional observations from a re-analysis of the deposited data

How the results depend on the processing

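The differences of the member probes, Prss54, the neighbours and the lists' genes of smallest p, the counts over all probes, the range and rank of Csnk2a2 and the lists' counts and medians were recomputed under 18 alternatives. The probe ratios, correlations, cell type markers and the range of Csnk2a1 were not. A_52_P405362 of Csnk2a2 was 0.56 with normexp background correction and 0.82 with the slide as a fixed block or on slide 2 alone, A_52_P207614 was 0.51 in both slide settings, and the range between Csnk2a2 probes was 0.51 with normexp and 0.82 (0.8151) in both slide settings. For A_51_P202964 the sign changed without WT replicate 2 (-0.0207) and with median scaling (-0.0038), moves smaller than its spread. A_51_P397768 of Csnk2a1 turned to 0.01 (0.0061) with normexp, and A_52_P513959 to 0.0814 in both slide settings. Csnk2b turned to 0.0081 with normexp and 0.0077 with array weights, and it ran from -0.0538 to 0.0252 when 1 animal was left out. With 926 probes at an unadjusted p under 0.05 in the report's setting, there were 1497 with array weights and 1672 with no filter, and with 1 animal left out the lowest count was 578 (WT replicate 1 left out) and the highest 1803 (WT replicate 3 left out). Probes past the adjusted threshold, 0 in the report's setting, numbered 1 with normexp, 1 with the slide as a fixed block, 1 with the filter on all 6 arrays and 2 with the intensity trend and robust variance. With the replicate block, differences were as in the report (0.72 for A_52_P405362), 1129 probes had an unadjusted p under 0.05 and 0 passed the adjusted threshold. None of the 3 lists had a probe past the adjusted threshold in any alternative run. At an unadjusted p under 0.05, the casein kinase 2 partners had at most 4 higher (without WT replicate 3) and 2 lower. The cause of these changes was not tested. With 3 animals a genotype, the widest 95% interval of the member probes without a role in the choice was that of A_52_P131997 (-0.44 to 0.03).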
